A study of Trametes sanguinea with 15 samples.

Results

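Genes 1537322 and 1577052 of Pycnoporus sanguineus CIRM-BRFM 1264 were examined here, both named by their protein identifiers and both annotated by the study to glycoside hydrolase family GH3. They were taken by identifier, and they are 2 of the 14165 gene models in the deposited count table. The annotation gives the family only, and a transcript count does not show which sugar an enzyme cleaves. The fungus, a white-rot basidiomycete, was grown in liquid culture for 3 days, and its RNA was sequenced in 15 libraries, 3 for each of 5 carbon sources. The substrate (aspen, wheat straw, xylan-galactomannan or Avicel) was given at 15 g/l on top of 2.5 g/l maltose, and the maltose cultures had 20 g/l maltose and no other substrate. Maltose and Avicel, a crystalline cellulose, were the control conditions of the study. All libraries came from the same strain, and every culture held some maltose. The replicates on aspen, wheat straw, Avicel and maltose were independent cultures per the study. For xylan-galactomannan nothing comparable was stated, so the p-values of its contrasts measure the spread between libraries that may be technical.

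Cellulose is broken down outside the fungal cell by cellobiohydrolases, endoglucanases and oxidative enzymes, which release cellobiose and short glucose chains. Enzymes of family GH3 act late in this process. Many are β-glucosidases, which cut single glucose units from cellobiose and relieve the cellulases of inhibition by this product. Other members of the family are β-xylosidases or act on further sugars.

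Library totals ranged from 24209984 to 50428442 counts. Of the gene models, 11724 passed the filter on low counts, both GH3 genes among them. Xylan-galactomannan 2, maltose 3 and Avicel 1 were each the library least like the others of its own group (mean correlations with them of 0.946, 0.960 and 0.962), and results that rest on them are given with and without them. Xylan-galactomannan 1, at 0.960, was no closer to its group than maltose 3, and it was left out singly in turn.

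Gene 1537322 had 44821 counts over the 15 libraries, with 287 to 9470 per library, in a gene model of 1176 bases. Gene 1577052 had 37137 counts in all, with 123 to 6535 per library, in a model of 2415 bases. The mycelium was sequenced in bulk, so a change in all hyphae and a change in some of them cannot be told apart.

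Gene 1537322 reached its highest group mean on wheat straw. Its level, in CPM (its count as a share of the TMM-scaled library size), was 29.7, 36.1 and 44.2 on aspen. On wheat straw it was 142, 197 and 179 CPM. On xylan-galactomannan it was 49.6, 213 and 67.1 CPM. These 3 libraries spread most widely, with library 2 above every wheat straw library and the other 2 below all of them. On Avicel it was 25.6, 48.6 and 53.1 CPM. On maltose it was 9.81, 17.2 and 11.6 CPM, below all 12 libraries from the other carbon sources. The order of the means was therefore wheat straw (173 ± 28.0), xylan-galactomannan (110 ± 89.6), Avicel (42.4 ± 14.7), aspen (36.7 ± 7.22) and maltose (12.9 ± 3.88 CPM, SD, n = 3 each). Among neighbours in this order, wheat straw and xylan-galactomannan overlapped, as did xylan-galactomannan with Avicel and Avicel with aspen, whereas maltose stood apart from aspen.

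Gene 1577052 was lowest on maltose too, and its means on the other substrates spanned 41.4 to 110 CPM. Its level was 40.4, 41.4 and 42.4 CPM on aspen, the narrowest of its 5 groups. On wheat straw it was 69.4, 85.2 and 84.5 CPM. On xylan-galactomannan it was 29.2, 209 and 93.4 CPM, again with library 2 highest and library 1 lowest. On Avicel it was 47.7, 98.9 and 92.0 CPM. On maltose it was 9.81, 8.19 and 4.97 CPM, the lowest 3 of the 15 values. The means were ordered xylan-galactomannan (110 ± 91.1), wheat straw (79.7 ± 8.93), Avicel (79.5 ± 27.8), aspen (41.4 ± 1.00) and maltose (7.66 ± 2.47 CPM, SD, n = 3 each). Xylan-galactomannan, wheat straw and Avicel could not be ranked against each other, since their libraries overlapped.

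**Figure D1:**
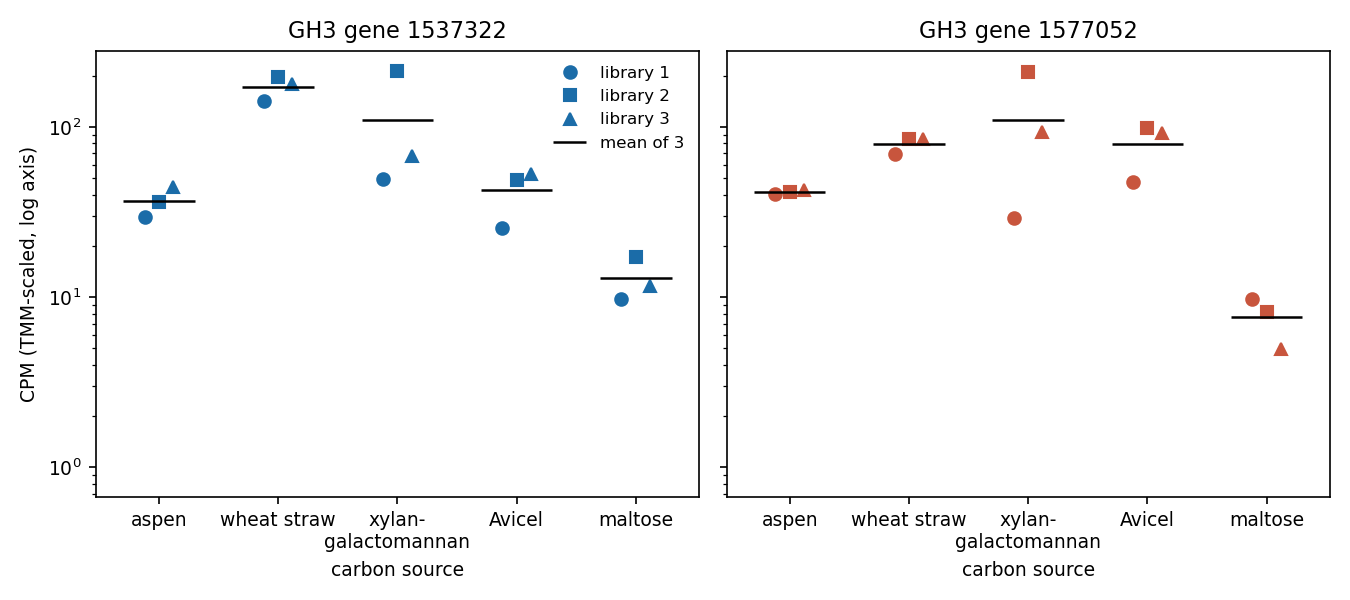
Level of both GH3 genes in each library (points, CPM on the TMM scale, log axis) by carbon source, with the mean of 3 libraries as a bar. The maltose libraries lie lowest for both genes, and xylan-galactomannan library 2 reaches 213 and 209 CPM.

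Per kilobase of gene model, gene 1537322 was at 31.2 ± 6.14 CPM on aspen, 147 ± 23.8 on wheat straw, 93.4 ± 76.2 on xylan-galactomannan, 36.1 ± 12.5 on Avicel and 10.9 ± 3.30 on maltose. On wheat straw this placed it 914th of the 11724 genes tested, and on maltose 6787th. Gene 1577052 was at 17.1 ± 0.41, 33.0 ± 3.70, 45.7 ± 37.7, 32.9 ± 11.5 and 3.17 ± 1.02 CPM per kilobase in the same order (SD, n = 3 each). Its place was 3821st on wheat straw, 3238th on xylan-galactomannan and 9136th on maltose. Thus, per length, 1537322 was the higher of the pair in all 5 group means.

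The first question was whether the levels of the GH3 genes differed among the carbon sources at all. Both differed among the 5 carbon sources in edgeR's quasi-likelihood test (adjusted p = 0.000196 for 1537322 and 0.00078 for 1577052). This test passed for 70.6% of all genes, so the difference alone did not set the pair apart. In single contrasts, a call required an adjusted p below 0.05 and a log2 fold change beyond 1 in either direction.

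Both genes were called higher on each of the 4 substrates than on maltose, and no substrate library overlapped the maltose libraries for either gene. The 4 contrasts share the maltose libraries. These cultures had 20 g/l maltose, against 2.5 g/l in the substrate cultures. A response to the added substrate and one to less maltose therefore cannot be told apart. On wheat straw, 1537322 was 13.4-fold higher (log2 3.74 ± 0.51, SE, adjusted p = 0.00018) and 1577052 10.4-fold (3.38 ± 0.55, adjusted p = 0.00069). The share of all genes called higher there was 9.80%, and 54.3% of all genes did not overlap. The study had picked 1537322 from these libraries for its rise on wheat straw relative to maltose and Avicel, so neither of those contrasts is independent evidence of its direction.

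On xylan-galactomannan, 1537322 was 8.53-fold higher than on maltose (log2 3.09 ± 0.49, adjusted p = 0.0012), and 1577052 was 14.4-fold higher (3.85 ± 0.56, adjusted p = 0.00068). The corresponding share of all genes called higher was 5.87%, and 28.7% did not overlap. Without xylan-galactomannan library 2, both remained called, at log2 2.13 and 2.96 (adjusted p = 0.00093 for both). The levels on this substrate averaged 58.4 CPM for 1537322 and 61.3 CPM for 1577052 in its 2 other libraries.

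On Avicel, 1577052 was 10.4-fold higher than on maltose (log2 3.37 ± 0.55, adjusted p = 0.0015), while 1537322 was 3.29-fold higher (1.72 ± 0.47, adjusted p = 0.031). Here 3.66% of all genes were called higher, and 26.8% did not overlap. The call of 1537322 ended without maltose 1, maltose 3, Avicel 2 or Avicel 3 (adjusted p = 0.109, 0.078, 0.093 and 0.106), with log2 values of 1.53 to 1.99 over all libraries left out in turn. It also ended in limma-voom (1.69, adjusted p = 0.051) and on the library size alone (1.68, adjusted p = 0.055).

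On aspen, 1537322 was 2.85-fold higher than on maltose (log2 1.51 ± 0.47, adjusted p = 0.018) and 1577052 was 5.40-fold higher (2.43 ± 0.53, adjusted p = 0.0024). Calls were common in this contrast, with 14.4% of all genes higher and 58.0% not overlapping. The call of 1537322 was lost without maltose 1, maltose 3 or aspen 3 (adjusted p = 0.061, 0.054 and 0.054).

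The next contrasts took Avicel as the reference, with 2.5 g/l maltose in the Avicel cultures and in those compared with them. Gene 1537322 was 4.07-fold higher on wheat straw than on Avicel (log2 2.02 ± 0.47, adjusted p = 0.0078), with no overlap of libraries, in a contrast that the study used to select it. Of all genes, 7.68% were called higher and 52.0% did not overlap. The log2 value stayed between 1.76 and 2.22 with each of the 6 libraries left out in turn. Gene 1577052 was level between the same substrates (log2 0.00 ± 0.50, adjusted p = 0.998), and the interval of 2 SE ran from -1.0 to 1.0.

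Gene 1537322 was 2.59-fold higher on xylan-galactomannan than on Avicel (log2 1.37 ± 0.46, adjusted p = 0.042, against 9.10% of all genes called higher), but the libraries overlapped. Without xylan-galactomannan library 2 the log2 value was 0.41 (adjusted p = 0.34), and the call was also lost without any 1 of the Avicel libraries (adjusted p = 0.113, 0.083 and 0.063). For 1577052 the log2 value was 0.47 ± 0.50 (adjusted p = 0.51), and it turned to -0.41 without the same xylan-galactomannan library.

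Neither gene was called on aspen over Avicel. Gene 1537322 had a log2 value of -0.21 ± 0.45 (adjusted p = 0.73, interval -1.12 to 0.70). Gene 1577052 had one of -0.94 ± 0.50 (adjusted p = 0.14, interval -1.95 to 0.07), although its 3 aspen libraries all lay below its Avicel libraries. Of all genes, 60.2% did not overlap in this contrast. In a fit to only the 6 libraries compared, 1577052 had log2 -0.96 (adjusted p = 0.021). It passed the limit on adjusted p there and fell short of the fold needed for a call. Without the 3 libraries that stand apart, 1577052 was called lower on aspen (log2 -1.24, adjusted p = 0.012). The shares of all genes called and called lower were 27.6% and 12.8%.

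Between both plant materials, 1537322 fell on aspen relative to wheat straw, with a log2 fold change of -2.23 ± 0.47 (adjusted p = 0.0039), or 4.71-fold lower. Its libraries did not overlap, as for 58.7% of all genes, and 7.14% of all genes were called lower. With each library left out, the log2 value lay between -2.39 and -2.10. For 1577052 the value was -0.94 ± 0.50 (adjusted p = 0.18, interval -1.95 to 0.06), and its libraries did not overlap either. In a fit to only the 6 libraries compared, its value was -0.93 (adjusted p = 0.0002). Without the 3 libraries that stand apart it was -0.95 (adjusted p = 0.032). In both fits it passed the limit on adjusted p and fell short of the fold needed for a call.

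Relative to xylan-galactomannan, both genes were called lower on aspen, 1537322 at log2 -1.58 ± 0.46 (adjusted p = 0.014) and 1577052 at -1.42 ± 0.51 (adjusted p = 0.037). The libraries of 1537322 did not overlap and those of 1577052 did. Of all genes, 14.7% were called lower there, and 53.2% did not overlap. Both calls rested on xylan-galactomannan library 2, without which the log2 values were -0.61 and -0.52 (adjusted p = 0.12 and 0.33). The call of 1537322 was lost also without aspen 1 (adjusted p = 0.056), and that of 1577052 without any aspen library or xylan-galactomannan 3 (adjusted p = 0.052 to 0.093). On wheat straw over xylan-galactomannan, where 21.5% of all genes were called, neither GH3 gene was, at log2 0.65 ± 0.45 for 1537322 (adjusted p = 0.27) and -0.47 ± 0.50 for 1577052 (adjusted p = 0.47). Without library 2, 1537322 was called higher on wheat straw (log2 1.61, adjusted p = 0.0022), a contrast in which 9.60% of all genes were called higher, and 1577052 stood at 0.41 (adjusted p = 0.46).

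**Figure D2:**
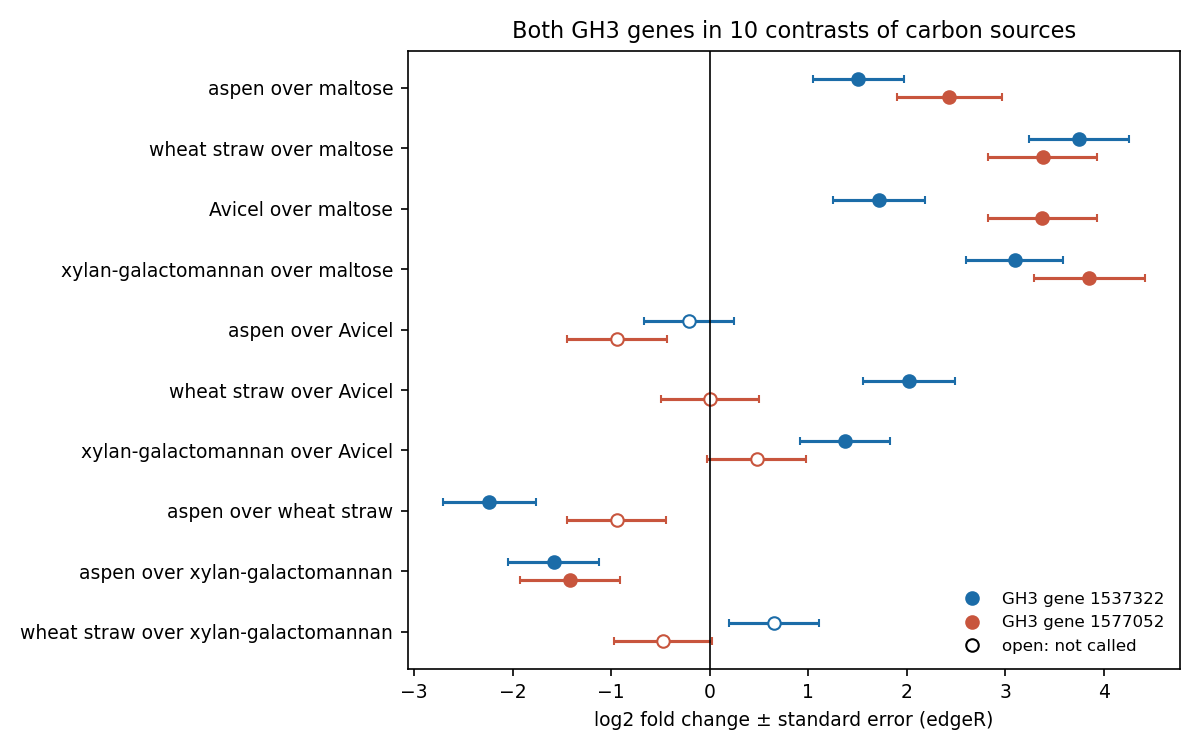
Log2 fold change (point) with its standard error (bar) for both GH3 genes in 10 contrasts of carbon sources from edgeR, filled where called. Both genes are right of 0 in the 4 contrasts over maltose, and wheat straw over Avicel is at 2.02 for 1537322 and 0.00 for 1577052.

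Whether the pair responded alike was tested within libraries, since the ratio of both genes in one library does not depend on library scaling. Per kilobase, the log2 ratio of 1537322 to 1577052 was 0.59, 0.84 and 1.10 on aspen and 2.07, 2.25 and 2.12 on wheat straw. It was 1.80, 1.06 and 0.56 on xylan-galactomannan. On Avicel it was 0.14, 0.01 and 0.24, so the pair stood nearly level per length. On maltose it was 1.04, 2.11 and 2.26, with maltose 1, where each gene had 308 counts, below both others.

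The ratio differed among the carbon sources (exact permutation test of F over 1401400 partitions of the 15 libraries, p = 0.0027). The study had picked 1537322 from these libraries for its rise on wheat straw relative to maltose and Avicel. Part of the difference in the ratio could therefore follow from that choice, and the test is not independent evidence of it. The mean log2 ratio was 2.15 ± 0.09 on wheat straw, 1.14 ± 0.62 on xylan-galactomannan, 0.84 ± 0.25 on aspen, 0.13 ± 0.12 on Avicel and 1.80 ± 0.67 on maltose (SD, n = 3 each). As a ratio, 1537322 was 4.43-fold the level of 1577052 on wheat straw and 1.10-fold on Avicel. With any 1 library left out, the exact permutation p lay between 0.00098 and 0.0085.

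The Avicel libraries lay below every library of the 4 other groups, and the wheat straw libraries above every aspen, xylan-galactomannan and Avicel library. In all, 6 of the 10 pairs of groups did not overlap. The ratio was computed for these GH3 genes only, so how common such differences are among other gene pairs was not tested. A single pair of 3 against 3 libraries cannot fall below p = 0.1 in the two-sided exact permutation test, and these 6 pairs gave that value (0.17 after adjustment over the 10 pairs). Wheat straw and maltose overlapped, with a difference of log2 0.34 in the ratio (exact permutation p = 0.7).

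**Figure D3:**
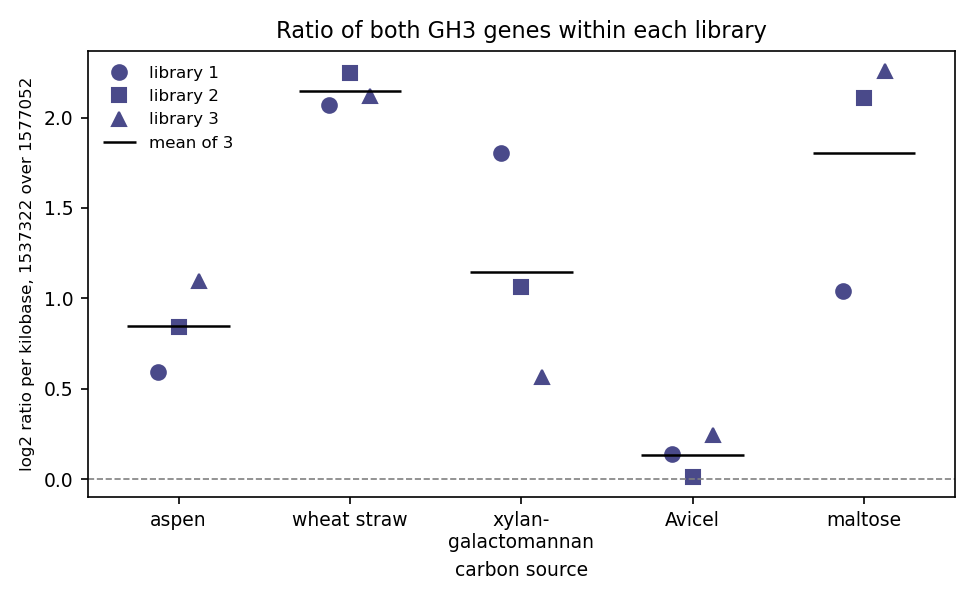
Log2 ratio of gene 1537322 to gene 1577052 per kilobase within each library (points) by carbon source, with the mean of 3 libraries as a bar and equal levels as the dashed line. Avicel libraries lie between 0.01 and 0.24, and wheat straw libraries between 2.07 and 2.25.

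The GH3 genes were then set beside other enzymes of plant cell wall breakdown. The list named cellulose-active here includes a xyloglucanase, although xyloglucan is a hemicellulose. The 6 cellulose-active genes comprised a cellobiohydrolase of family GH6 and one of GH7, a lytic polysaccharide monooxygenase (AA9), a cellobiose dehydrogenase (AA8-AA3_1), a GH74 xyloglucanase and a GH131 glucanase. The study chose these and the genes of the lists below on libraries used here, so their directions are not independent evidence. In the study's map of transcript patterns all 6 lay in the same node. Their agreement with each other on maltose, Avicel, aspen and wheat straw was therefore partly built in by that grouping. All 6 were called higher on wheat straw and on Avicel than on maltose, 5 on aspen and 1 on xylan-galactomannan. The shares of all genes called higher were 9.80% on wheat straw, 3.66% on Avicel, 14.4% on aspen and 5.87% on xylan-galactomannan. The list medians were log2 3.44 on aspen, 4.71 on wheat straw, 0.01 on xylan-galactomannan and 8.69 on Avicel, beside medians of all genes of at most 0.04.

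On Avicel the cellobiohydrolase 1567787 (CBM1-GH6) was at 10386 ± 6152 CPM, against 7.49 ± 1.80 CPM on maltose (SD, n = 3 each), and the GH7 gene 1675671 was at 31691 ± 25537 CPM, against 36.5 ± 18.1 CPM. The GH3 genes rose 3.29-fold and 10.4-fold in the same contrast. On xylan-galactomannan the GH3 genes were called higher than on maltose there, whereas 5 of the 6 cellulose-active genes were not called. Among these was GH7 with log2 0.08 ± 0.67 (adjusted p = 0.95). The remaining gene, CBM1-GH6, was called at 1.48 ± 0.36 (adjusted p = 0.015), a call that ended without maltose 1.

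All 6 cellulose-active genes fell on aspen, on wheat straw and on xylan-galactomannan relative to Avicel, with list medians of log2 -4.85, -3.73 and -8.64. Of all genes, 12.8%, 4.91% and 4.53% were called lower in these contrasts. Neither GH3 gene was called lower in any of these 3 contrasts with all libraries. Without the 3 libraries that stand apart, 1577052 was called lower on aspen over Avicel (log2 -1.24, adjusted p = 0.012). The difference between the GH3 genes and the list was not tested.

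The 7 hemicellulose-active genes held 2 members of GH43, a family of arabinofuranosidases and xylosidases, a CBM1-GH5_7 mannanase, a GH2 gene, a GH95 fucosidase, the glucuronoyl esterase CE15 and the acetyl esterase CE16. On maltose as the reference, 6 were called higher on aspen, 7 on wheat straw, 6 on xylan-galactomannan and 4 on Avicel, beside 14.4%, 9.80%, 5.87% and 3.66% of all genes. The list medians were log2 4.09, 4.36, 3.71 and 2.40 in this order. GH43 gene 1561085 was 8.43-fold higher on aspen, 20.6-fold on wheat straw, 13.1-fold on xylan-galactomannan and 11.4-fold on Avicel (adjusted p at most 0.00047). CE15 gene 1679979 had its largest value on xylan-galactomannan, at log2 7.34 ± 0.88 (adjusted p = 0.00017). The other GH43 gene, 1695354, had log2 0.69 ± 0.61 on Avicel (adjusted p = 0.55), where GH2 and GH95 were not called either.

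**Figure D4:**
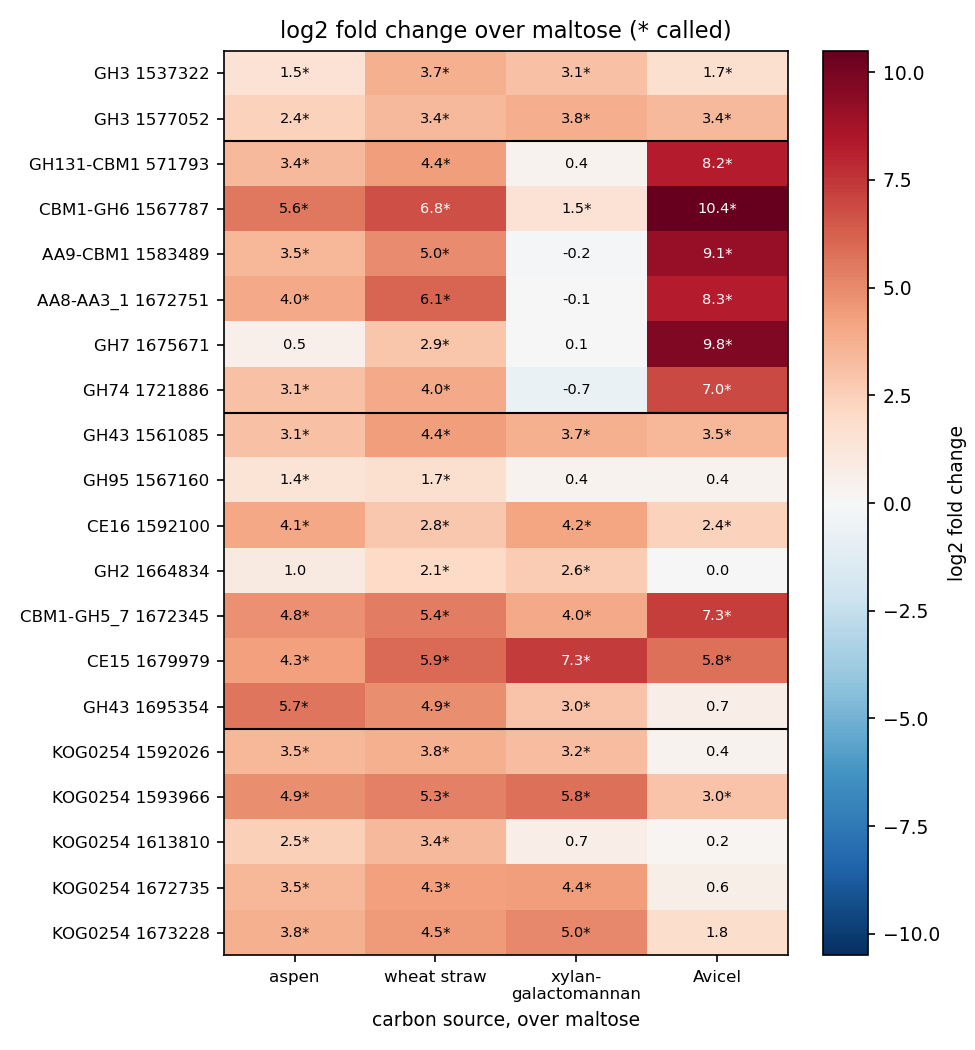
Log2 fold change over maltose (colour and number, asterisk where called) of both GH3 genes, the 6 cellulose-active genes, the 7 hemicellulose-active genes and 5 KOG0254 transporters, in blocks from top to bottom, on 4 substrates. The cellulose-active block runs from log2 6.95 to 10.44 on Avicel and from -0.66 to 1.48 on xylan-galactomannan, where the GH3 genes are at 3.09 and 3.85.

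Genes of KOG0254, predicted transporters of the major facilitator superfamily, were called higher than on maltose in 5 of 5 cases on aspen and on wheat straw, 4 on xylan-galactomannan and 1 on Avicel. Of all genes, 14.4% were called higher on aspen, 9.80% on wheat straw, 5.87% on xylan-galactomannan and 3.66% on Avicel. Among the 5 transporters, 1673228 followed GH3 gene 1537322 most closely (r = 0.83) and 1613810 least (r = 0.62). For 1577052 the closest was 1593966 (r = 0.81) and the least 1613810 (r = 0.38).

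In the study's map of transcript patterns, 1537322 lay in a node selected on wheat straw and 1577052 in another node, rich in secreted proteins. For the first node the study listed only genes that had passed its selection on wheat straw over maltose, so their rise there was set in advance. Over maltose, the 11 other listed genes were all called higher on wheat straw, with 7 on aspen, 4 on xylan-galactomannan and 0 on Avicel. The shares of all genes called higher were 9.80%, 14.4%, 5.87% and 3.66% in this order. On Avicel, 2 of the 11 had an unadjusted edgeR p under 0.05, and DESeq2 and limma-voom called 0 as well. The median on wheat straw was log2 2.01. Gene 1537322 exceeded this at 3.74. It was called on Avicel too (edgeR adjusted p = 0.031), but that call ended in limma-voom and in 4 of the 6 fits with 1 library left out. Its closest partner among the listed genes of the node was 1596362 (KOG0053, a class of cystathionine β-lyases, r = 0.81), and its least alike was 1594893 (r = 0.50).

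The 10 other genes of the node of 1577052 were all called higher than on maltose on aspen, on wheat straw and on Avicel, and 8 on xylan-galactomannan (14.4%, 9.80%, 3.66% and 5.87% of all genes). Their medians were log2 2.40 on aspen, 2.92 on wheat straw, 3.35 on Avicel and 2.0 on xylan-galactomannan. The values of 1577052 were 2.43, 3.38, 3.37 and 3.85 in these contrasts. The study's map grouped genes by their levels on maltose, aspen, wheat straw and Avicel in libraries used here. Agreement within the node on these carbon sources was therefore partly built in. Its closest partner in the node was the GH43 gene 1561085 (r = 0.94), and its least alike was 1183761 (r = 0.43), which carried no annotation.

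Finally, all genes tested were ranked by the correlation of their log2 CPM with each GH3 gene over the 15 libraries, which share 5 carbon sources. The r between the GH3 genes was 0.84 (Spearman's rho 0.79), which placed 1577052 25th for 1537322 and 1537322 12th for 1577052. The median r over all genes was 0.01 for each. The correlations describe these libraries, and no function is read from them.

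Most like 1537322 were 1677842 (r = 0.95), 1680152 of the cytochrome P450 class KOG0157 (r = 0.94), 1588232 (r = 0.93), 1609960 and 1639379 (both r = 0.92). Annotations were at hand only for genes in the lists that the study chose on libraries used here. Among genes annotated there, the next were 1611298 of the reductase class KOG0725 (r = 0.88) and GH43 gene 1561085 (r = 0.85). Their sizes of change differed. On wheat straw over maltose, 1677842 had log2 3.17 and 1588232 3.23, both called, while 1639379, at 0.40, was under the fold needed for a call.

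Most like 1577052 were GH43 gene 1561085 (r = 0.94), the pectin esterase CE8 gene 1577721 (r = 0.93), 1750423 (r = 0.91), 1650178 (r = 0.91) and CE15 gene 1679979 (r = 0.90). On Avicel over maltose, where 1577052 was at log2 3.37, 1577721 was at 5.45 and 1561085 at 3.51, both called. The cellulose-active genes, which share a node of the study's map, were less alike, with r of 0.35 to 0.55 for 1577052 and 0.06 to 0.31 for 1537322. The hemicellulose-active genes had a median r of 0.78 for 1577052 and 0.64 for 1537322. Of the genes named here, 1561085 and 1577721 lay in the map node of 1577052, and the hemicellulose-active GH95 gene lay in that of 1537322. Their likeness to the GH3 gene of their node was therefore partly built in. By rank correlation, 3 of the 5 most alike genes stayed in the list for each GH3 gene, and over the 5 group means 1 stayed for 1537322 and 0 for 1577052.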

How the data were processed

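RNA-seq counts of P. sanguineus from 15 libraries were used. The authors aligned reads with TopHat2 and counted them with HTSeq, and deposited whole-number counts for each gene model. Tool versions and strand setting: not given in the sources used here. A second deposited table held a normalised signal, in which each library's counts are divided by its size factor (DESeq 1.5 in the submitters' processing notes). Gene model lengths in bases, a deposited column of another type (other), served for levels per kilobase. All library columns were matched to samples, with 0 left over.

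Counts were tested with edgeR 4.0.16 in R 4.3.3 (filterByExpr, TMM, robust quasi-likelihood fit of group means to 15 libraries), with Benjamini-Hochberg adjustment over the 11724 genes tested within each of 10 contrasts. The standard error is the log2 fold change divided by the square root of F, and intervals are 2 SE. Counts of 11666 genes were simulated with known changes on aspen over maltose and the same biological coefficient of variation, 0.28, for every gene. On these, edgeR made 203 calls, 11 of them false, and recovered 92% of 3-fold and all 8-fold changes. Recovery at a wider spread, such as that of the GH3 genes on xylan-galactomannan, was not simulated. The ratio of both genes used counts plus 0.5 per kilobase and an exact permutation test (numpy 2.4.6). DESeq2 1.42.0, limma 3.58.1, other scalings, filters, a length correction, a replicate block and libraries left out were tried as alternatives. Annotations were taken from the study's published gene lists. Named genes were both GH3 genes, both enzyme lists, the 5 genes and 3 annotated genes with the highest r (log2 CPM, prior count 2), and the most and least alike members of the transporter and node lists. Members and lists were chosen with earlier results of these data known. Sequences and genome positions are not used here.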

Additional observations from a re-analysis of the deposited data

How the results depend on the processing

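Both GH3 genes kept their call over maltose on wheat straw and xylan-galactomannan, and 1577052 kept it on aspen and Avicel, under every alternative run. So did 1537322 on wheat straw over Avicel and aspen over wheat straw. With libraries scaled by their totals only, the all-gene median of log2 changes lay between -0.08 and 0.48 over the 10 contrasts (-0.04 to 0.05 with TMM), and aspen over maltose then had 2619 genes higher and 914 lower, against 1684 and 1630 with TMM. With totals only, 1537322 lost its call for Avicel over maltose (1.68), xylan-galactomannan over Avicel (1.38) and aspen over xylan-galactomannan (-1.19) and turned to 0.19 for aspen over Avicel, and 1577052 lost aspen over xylan-galactomannan (-1.02). limma-voom lost Avicel over maltose (1.69) and xylan-galactomannan over Avicel (1.13) for 1537322 and aspen over xylan-galactomannan (-1.0) for 1577052. Removing a length trend lost xylan-galactomannan over Avicel for 1537322 (1.33). With only the 6 libraries of a contrast, xylan-galactomannan over Avicel (1.35) and aspen over xylan-galactomannan (-1.58) were lost for 1537322, and aspen over xylan-galactomannan (-1.41) was lost for 1577052. For 1577052, wheat straw over Avicel, near 0 throughout, took the other sign with median-of-ratios factors (-0.0225), DESeq2 (-0.0225), a length trend removed (-0.11) and only 6 libraries (-0.0227).

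Without Avicel 1, xylan-galactomannan 2 and maltose 3, 1577052 had aspen over Avicel at -1.24 (called), wheat straw over Avicel at -0.29, xylan-galactomannan over Avicel at -0.70, aspen over xylan-galactomannan at -0.54 (lost) and wheat straw over xylan-galactomannan at 0.41. For 1537322, xylan-galactomannan over Avicel (0.13) and aspen over xylan-galactomannan (-0.64) were lost, and wheat straw over xylan-galactomannan (1.60) was called. Without the same 3 libraries, the genes called over the whole table numbered 1525 for Avicel over maltose, 1948 for xylan-galactomannan over maltose and 2515 for xylan-galactomannan over Avicel, against 950, 1015 and 1598 with all libraries. Fits to only 6 libraries called 541, 444 and 933.

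With each library left out in turn, log2 values for 1537322 ranged from 1.35 to 1.78 for aspen over maltose, 1.53 to 1.99 for Avicel over maltose, 0.41 to 1.72 for xylan-galactomannan over Avicel, -1.93 to -0.61 for aspen over xylan-galactomannan and 0.30 to 1.61 for wheat straw over xylan-galactomannan. For 1577052 they ranged from -1.87 to -0.52 for aspen over xylan-galactomannan, -0.26 to 0.19 for wheat straw over Avicel, -0.41 to 0.93 for xylan-galactomannan over Avicel and -0.92 to 0.41 for wheat straw over xylan-galactomannan. The cause of these changes was not tested.

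Over all genes, replicate numbers did not pair the libraries. Of 30 same-numbered pairs, 3 had deviations correlated above 0.1 (r -0.37 to 0.40), and 3 of 15 libraries correlated best with their own number. For 1537322, however, library 1 was the lowest on every carbon source. Its standard error for aspen over maltose was 0.34 with a replicate block and 0.47 without, against 0.50 and 0.53 for 1577052. With the replicate block, 1577052 lost aspen over xylan-galactomannan (-1.21, adjusted p = 0.064), and no other call of the pair changed.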

Other observations

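Within a carbon source, the order of the 3 libraries was the same for both GH3 genes in 3 of the 5 groups. These were aspen, with library 3 highest and library 1 lowest for each gene, and wheat straw and xylan-galactomannan, with library 2 highest and library 1 lowest. On Avicel, library 1 was lowest for each gene, and the order of the other libraries differed. On maltose the order differed as well. This count was made after the values were seen and was not tested.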
